A study of Homo sapiens with 2 samples.

Results

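The genes described here serve the folding, entry and quality control of proteins in the endoplasmic reticulum (ER). Members were the rows of both FPKM tables named in a list of 40 ER genes, which covers the calnexin and calreticulin cycle, disulfide isomerases, ER-associated degradation, stress sensors, the translocon and signal peptidase. By name 38 were found in both tables, and ERO1L was found under its current symbol ERO1A, giving 39 of the 21225 genes analysed. DERL3 was not analysed here. FPKM, the unit of both tables, counts fragments relative to the length of the transcript and the size of the library.

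The tables come from RNA-seq of the human hepatoma line Huh7. Each group was 1 library: cells given a control shRNA, and cells transfected with an shRNA against E2F6, a transcription factor of the E2F family that represses genes. Neither the number of shRNA sequences nor the time after transfection was given in the sources used here. With 1 library a group no test between conditions was possible, no p-value is given, and every difference is one between these 2 libraries.

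Proteins that enter the secretory pathway pass through the SEC61 channel, lose their signal peptide to signal peptidase and receive glycans, which calnexin and calreticulin then read while disulfide isomerases shape the chain. Chains that fail to fold are drawn back to the cytosol and degraded. When unfolded chains accumulate, the sensors IRE1 (the product of ERN1), ATF6 and PERK start the unfolded protein response, and ATF6 and spliced XBP1 act on ER stress response elements in the promoters of chaperone genes. Hepatocytes secrete most plasma proteins and carry an extensive ER.

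The element for which chaperone promoters are known could be read directly, and the stretches below show which ER genes carry it, since they are set beside the levels later. Sequences are from RefSeq on build GRCh38.p14, with a window from 250 bases before to 50 bases after each annotated start. Of the 39 members, 36 matched a window by symbol, and PDIA3, DERL1 and SPCS1 did not. The ER stress response element (ERSE) was searched on both strands as CCAAT and CCACG with 9 bases of any kind between them. It occurred in 27 of 35116 windows (0.0769%). Counted per gene, it was in windows of 5 of the 36 members (13.9%), CALR, CANX, PDIA6, XBP1 and CRELD2, and of 0.166% of the 7836 genes with a window and a mean of at least 1 FPKM. Among the other ER genes it also stood in the windows of HSPA5 and HSP90B1, the chaperones BiP and GRP94, and of ERO1B. HSP90B1 held it at 2 places, of which the one farther from the start is shown. Capitals mark the element, and each stretch is read 5′ to 3′ on the strand named, so that the element starts with CCAAT.
CALR (chr19:12938379-12938407, minus strand): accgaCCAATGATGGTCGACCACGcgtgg
CANX (chr5:179698773-179698801, plus strand): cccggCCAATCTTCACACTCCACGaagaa
PDIA6 (chr2:10812848-10812876, minus strand): ccggaCCAATGAGCCGCAGCCACGgcttg
XBP1 (chr22:28800598-28800626, minus strand): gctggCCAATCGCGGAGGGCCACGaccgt
CRELD2 (chr22:49918549-49918577, minus strand): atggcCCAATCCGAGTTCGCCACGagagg
HSPA5 (chr9:125241386-125241414, minus strand): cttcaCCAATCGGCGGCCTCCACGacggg
HSP90B1 (chr12:103930211-103930239, plus strand): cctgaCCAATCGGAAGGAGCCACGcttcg
In CALR the element lay 225 to 207 bases before the annotated start and ran against the direction of the gene. Read along the gene with 20 more bases on each side (chr19:12938364-12938422, plus strand), the CALR stretch was as follows.
CALR: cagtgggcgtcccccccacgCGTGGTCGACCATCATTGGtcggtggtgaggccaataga

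A shorter form, ERSE-II, was searched on both strands as ATTGG, 1 base of any kind and CCACG, of which the last part is shared with the first element. It occurred in 19 of the 35116 windows (0.0541%), in those of 0.166% of the same 7836 genes and in those of 3 members (8.33%), HERPUD1, SDF2L1 and HYOU1, the last with 2 copies, of which the one nearer the start is shown.
HERPUD1 (chr16:56932020-56932040, plus strand): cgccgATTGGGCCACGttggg
SDF2L1 (chr22:21642109-21642129, minus strand): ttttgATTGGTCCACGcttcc
HYOU1 (chr11:119057269-119057289, plus strand): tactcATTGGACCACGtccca
A match describes these letters alone and was not tested as a binding site, and no match says only that the letters are not in this window.

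The library totals implied by the values were 17139752 for the control and 14724570 for the E2F6 shRNA library, and 20374 and 19974 genes were above 0. E2F6 itself had 2.54 FPKM with the control shRNA and 0.997 FPKM with the E2F6 shRNA, or 39.3% of the control (95% counting interval 25.8 to 59.3%). This rested on an estimated 97 and 33 fragments. Its difference of -0.82 on the log2(FPKM + 1) scale did not pass the rule of size given below. All 10 hepatoma and hepatocyte markers were above a mean of 1 FPKM, with a summed level of 3408 FPKM for the control shRNA and 2514 FPKM for the E2F6 shRNA. By the rule of size given below, ALB and APOB of that list were lower, at -1.15 and -1.19 on the log2(FPKM + 1) scale, HNF4A was higher, at 1.55, and the other 7 did not pass. In the lists for other cell types, also 10 names long, that mean was reached by 4 fibroblast and stellate cell markers, 2 macrophage markers, 1 endothelial marker and 1 marker of plasma and B cells. The summed level of the fibroblast list was 42.1 FPKM with the control shRNA and 63.1 FPKM with the E2F6 shRNA, that of the macrophage list, nearly all LYZ, 243 and 135.5 FPKM, that of the endothelial list 1.9998 and 3.26 FPKM, and that of the plasma and B cell list 16.3 and 18.3 FPKM. Both libraries come from 1 cell line, so a level in these lists does not show that cells of another type were present. In such bulk libraries fewer cells that express a gene and less RNA per cell cannot be told apart. The part of these lists in the results below was not tested.

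Averaged over the libraries, all 39 members reached 1 FPKM, and most stood close to the same level in both libraries. By the rule of size used throughout, a difference of at least 1 in log2(FPKM + 1) with a mean of at least 1 FPKM, 2 members were lower in the E2F6 shRNA library and 0 were higher. The lower members were CALR (calreticulin) and SPCS3, a subunit of signal peptidase. Among all 11574 genes at that mean, 2.06% were lower and 1.17% higher, or 3.23% in either direction. The median difference of the members was -0.05, beside -0.00209 over all genes, with 23 members below 0 and 16 above. A total of 24 of 39 members (61.5%) differed by under 0.25 on the log2 scale, as did 49.2% of all genes. The members' median level was 13.9 FPKM and that of all genes tested was 4.96 FPKM. No member lay between the threshold and EDEM3, which at -0.79 was the nearest below it in size.

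**Figure D1:**
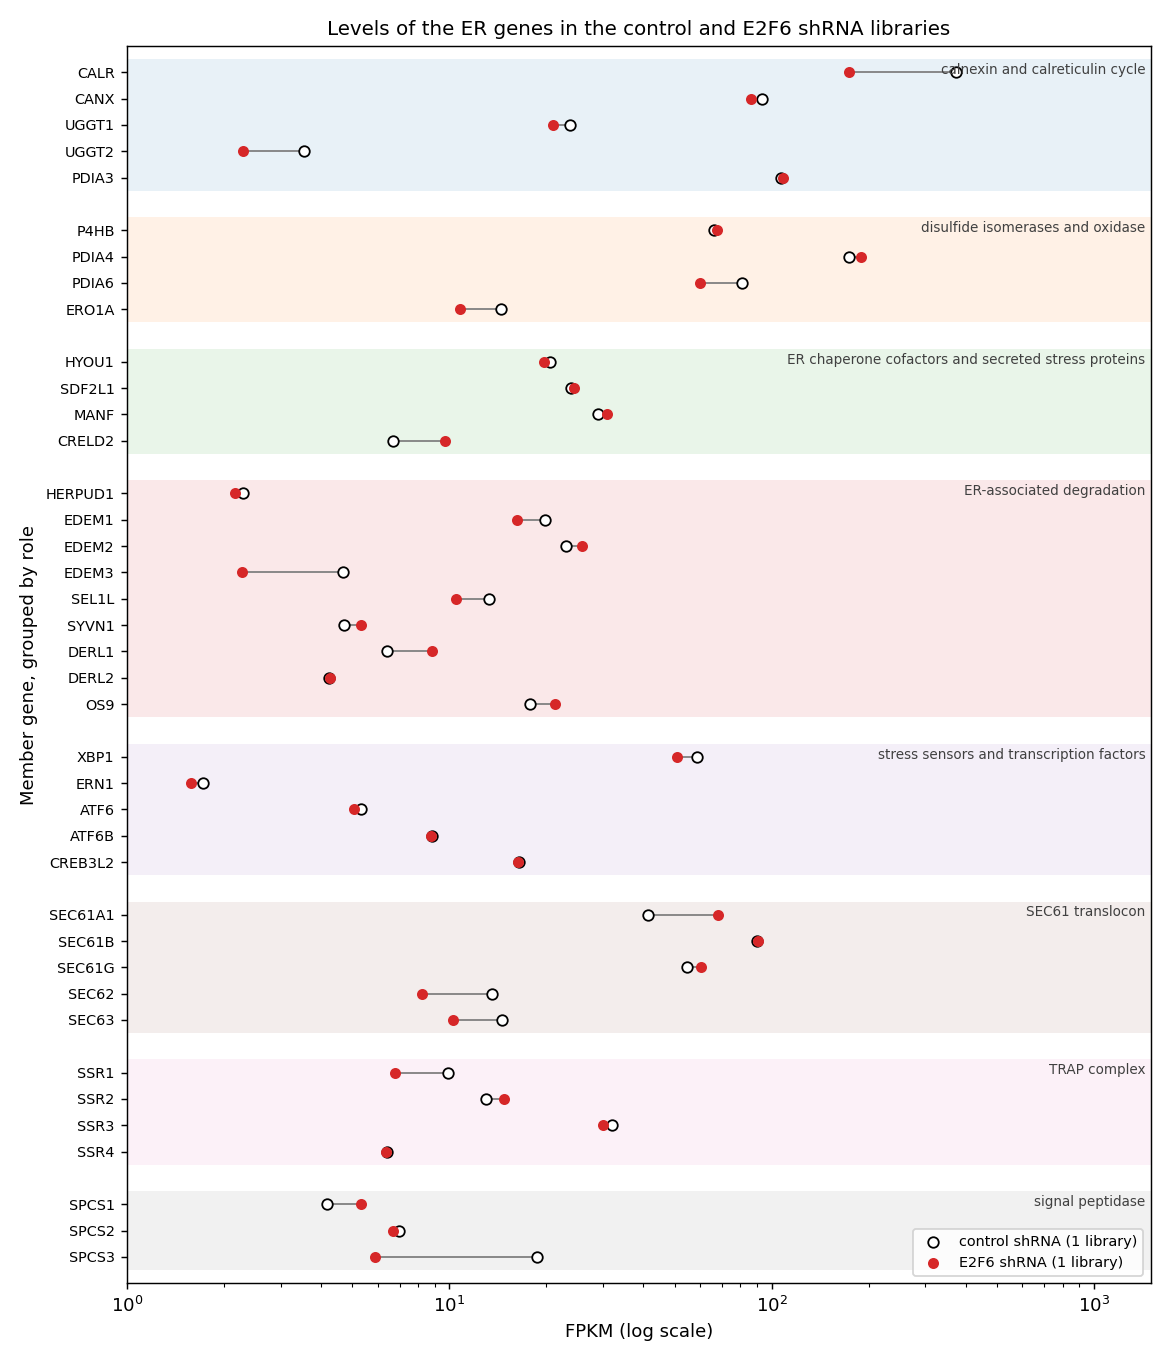
Level of each of the 39 ER genes in FPKM on a log axis, grouped by role, with the control shRNA library as open and the E2F6 shRNA library as red points (1 library each). CALR and SPCS3 show the longest lines to the left, SEC61A1 the longest to the right, and the stress sensors lie nearly on top of each other.

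In the calnexin and calreticulin cycle the lectin chaperone CALR stood apart from its partners. CALR had 373 FPKM with the control shRNA and 174 FPKM with the E2F6 shRNA. Further pairs of levels keep this order, control before E2F6 shRNA. It was the member with the highest level in the control and second in the E2F6 shRNA library. The level was 2.15-fold lower (95% counting interval 2.05 to 2.25), on an estimated 5831 and 2333 fragments, and the difference was -1.10 on the log2(FPKM + 1) scale. In the control library CALR stood above the chaperone HSPA5, and in the E2F6 shRNA library below it, with a ratio of their FPKM of 1.38 and 0.639. Among the 292 genes whose mean reached 100 FPKM, a level chosen after the values were seen, 9 were lower by the rule (3.08%), CALR among them, and 2 were higher (0.685%).

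The membrane-bound relative of calreticulin, calnexin (CANX), was at 93.04 and 86.05 FPKM. The ratio of CALR to CANX was 4.005 in the control and 2.02 in the E2F6 shRNA library. PDIA3, the disulfide isomerase that works with both lectins, was at 107 and 109 FPKM. Of these 3, CALR alone passed the rule, and the ratios were 0.925 (0.862 to 0.991) for CANX and 1.02 (0.961 to 1.08) for PDIA3. Reads of PDIA3 may be divided with its processed pseudogene PDIA3P1, which was at 75.4 and 82.8 FPKM, and its level is therefore uncertain. The glucosyltransferases that return unfolded glycoproteins to the lectins were UGGT1 at 23.6 and 20.9 FPKM and UGGT2 at 3.54 and 2.29 FPKM. For UGGT2, the rarer of them, the ratio of 0.645 had a counting interval of 0.434 to 0.930. The summed level of the 5 genes of the cycle was 599.5 FPKM with the control shRNA and 391 FPKM with the E2F6 shRNA.

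The disulfide isomerases are abundant enzymes of the ER lumen, and none passed the rule. PDIA4 was at 174 and 189 FPKM and was the highest member of the E2F6 shRNA library. P4HB, the isomerase that is also a subunit of prolyl hydroxylase, was at 66.2 and 67.6 FPKM. PDIA6 was at 80.6 and 59.9 FPKM, with a ratio of 0.743 (0.699 to 0.788). ERO1A, the oxidase that recharges the isomerases, was at 14.5 and 10.7 FPKM, a ratio of 0.743 (0.627 to 0.885). The 4 levels together were 336 and 327 FPKM. With the trend on GC content removed, all 4 were below 0.

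The chaperone cofactors and secreted stress proteins are among the genes known to respond most to ER stress. For 3 of the 4 the levels lay close together in the libraries. HYOU1, a large chaperone and exchange factor for BiP, was at 20.5 and 19.7 FPKM. SDF2L1, a partner of the BiP cycle, was at 23.9 and 24.3 FPKM, and MANF, a protein secreted under ER stress, at 28.9 and 30.8 FPKM. For each of these 3 the counting interval of the ratio included 1. CRELD2, another secreted stress protein, was at 6.66 and 9.69 FPKM, a ratio of 1.45 (1.16 to 1.83), and did not pass the rule at 0.48. With the trend on GC content removed, HYOU1 was at -0.21, SDF2L1 at -0.11, MANF at -0.05 and CRELD2 at 0.33.

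None of the 9 genes of ER-associated degradation passed the rule, and 4 were below 0 and 5 above, or 5 and 4 after the correction for GC content. EDEM3, a mannosidase that marks misfolded glycoproteins, was at 4.66 and 2.27 FPKM. This was 2.05-fold lower (1.63 to 2.58), but the pseudocount of 1 brought the difference to -0.79, short of the rule. Its relatives did not share that size, with EDEM1 at 19.8 and 16.3 FPKM and EDEM2 at 22.9 and 25.8 FPKM. The lectin OS9, which hands glycoproteins to the ubiquitin ligase, was at 17.8 and 21.2 FPKM. The ligase itself, HRD1 (SYVN1), was at 4.71 and 5.32 FPKM, and its adaptor SEL1L at 13.3 and 10.51 FPKM. The ratio of SYVN1 had an interval that included 1 (0.870 to 1.46), and that of SEL1L one that did not (0.682 to 0.914). After the correction for GC content described below, SYVN1 was at -0.00700 and SEL1L at -0.13 on the log2 scale. SYVN1 also shares 7.24% of its exon bases on the same strand with FAU, at 29.1 and 39.4 FPKM, and its level is uncertain. The derlins belong to the channel through which chains leave the ER. DERL1 was at 6.39 and 8.85 FPKM, a ratio of 1.39 (1.16 to 1.66), while DERL2 was at 4.22 and 4.25 FPKM. HERPUD1, a scaffold of the ligase and a stress-induced gene, was at 2.28 and 2.16 FPKM.

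The stress sensors and their factors lay close to the same level in both libraries, all 5 below 0, the lowest being XBP1 at -0.20. After the correction for GC content 4 were below 0 and 1 above, from -0.26 (XBP1) to 0.23 (ATF6). ERN1, which encodes the sensor IRE1, was the lowest member of both libraries at 1.72 and 1.58 FPKM. ATF6 was at 5.32 and 5.06 FPKM, its relative ATF6B at 8.82 and 8.79 FPKM, and CREB3L2, another membrane-bound factor, at 16.4 FPKM in both. The counting intervals of these 4 ratios included 1, the widest being that of ERN1 at 0.586 to 1.44 on an estimated 48 and 38 fragments. XBP1, the factor whose mRNA IRE1 splices, was at 58.6 and 50.8 FPKM, a ratio of 0.867 (0.803 to 0.936). A value per gene sums the spliced and unspliced XBP1 mRNA, so the splicing itself was not measured.

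The SEC61 channel is built of 3 subunits, and the one that forms the pore differed most between the libraries. SEC61A1, the pore, was at 41.3 and 68.0 FPKM, a ratio of 1.65 (1.54 to 1.77) and the largest positive difference of the 39 members at 0.71. SEC61B was at 90.0 and 90.8 FPKM and SEC61G at 54.6 and 60.3 FPKM, with intervals that included 1. After the correction for GC content SEC61A1 was at 0.59, SEC61G at 0.33 and SEC61B at 0.01. The ratio of SEC61A1 to SEC61B was 0.459 in the control and 0.749 in the E2F6 shRNA library. SEC62 and SEC63, membrane proteins that help chains enter the channel after their synthesis, differed in the other direction. SEC62 was at 13.5 and 8.20 FPKM, a ratio of 0.606 (0.497 to 0.742), and SEC63 at 14.6 and 10.3 FPKM, a ratio of 0.706 (0.589 to 0.846). None of the 5 passed the rule. Reads of SEC63 may be divided with its pseudogene SEC63P1, which was at 7.003 and 3.455 FPKM.

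The TRAP complex, which sits beside the channel, has 4 subunits, encoded by SSR1 to SSR4. SSR1 was at 9.88 and 6.77 FPKM, a ratio of 0.685 (0.574 to 0.816). The other subunits had intervals that included 1, with SSR2 at 12.98 and 14.79 FPKM, SSR3 at 32.06 and 29.96 FPKM and SSR4 at 6.38 and 6.34 FPKM. None of the 4 passed the rule.

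Signal peptidase held the largest difference of the members. SPCS3, an accessory subunit, was at 18.7 and 5.86 FPKM, 3.19-fold lower (2.70 to 3.79) on an estimated 665 and 179 fragments, with a difference of -1.52. SPCS1 was at 4.18 and 5.33 FPKM and SPCS2 at 6.96 and 6.69 FPKM, with intervals that included 1. The catalytic subunits, named after their values were seen, were SEC11A at 17.1 and 15.1 FPKM and SEC11C at 3.61 and 3.01 FPKM. SPCS3 thus stood above SEC11A with the control shRNA and below it with the E2F6 shRNA, with a ratio of 1.095 in the control and 0.387 in the E2F6 shRNA library. The level of SPCS2 is uncertain, since its processed pseudogene SPCS2P4 was at 54.7 and 56.2 FPKM, and so is that of SPCS1, which shares 50.7% of its exon bases with NEK4 on the other strand.

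**Figure D2:**
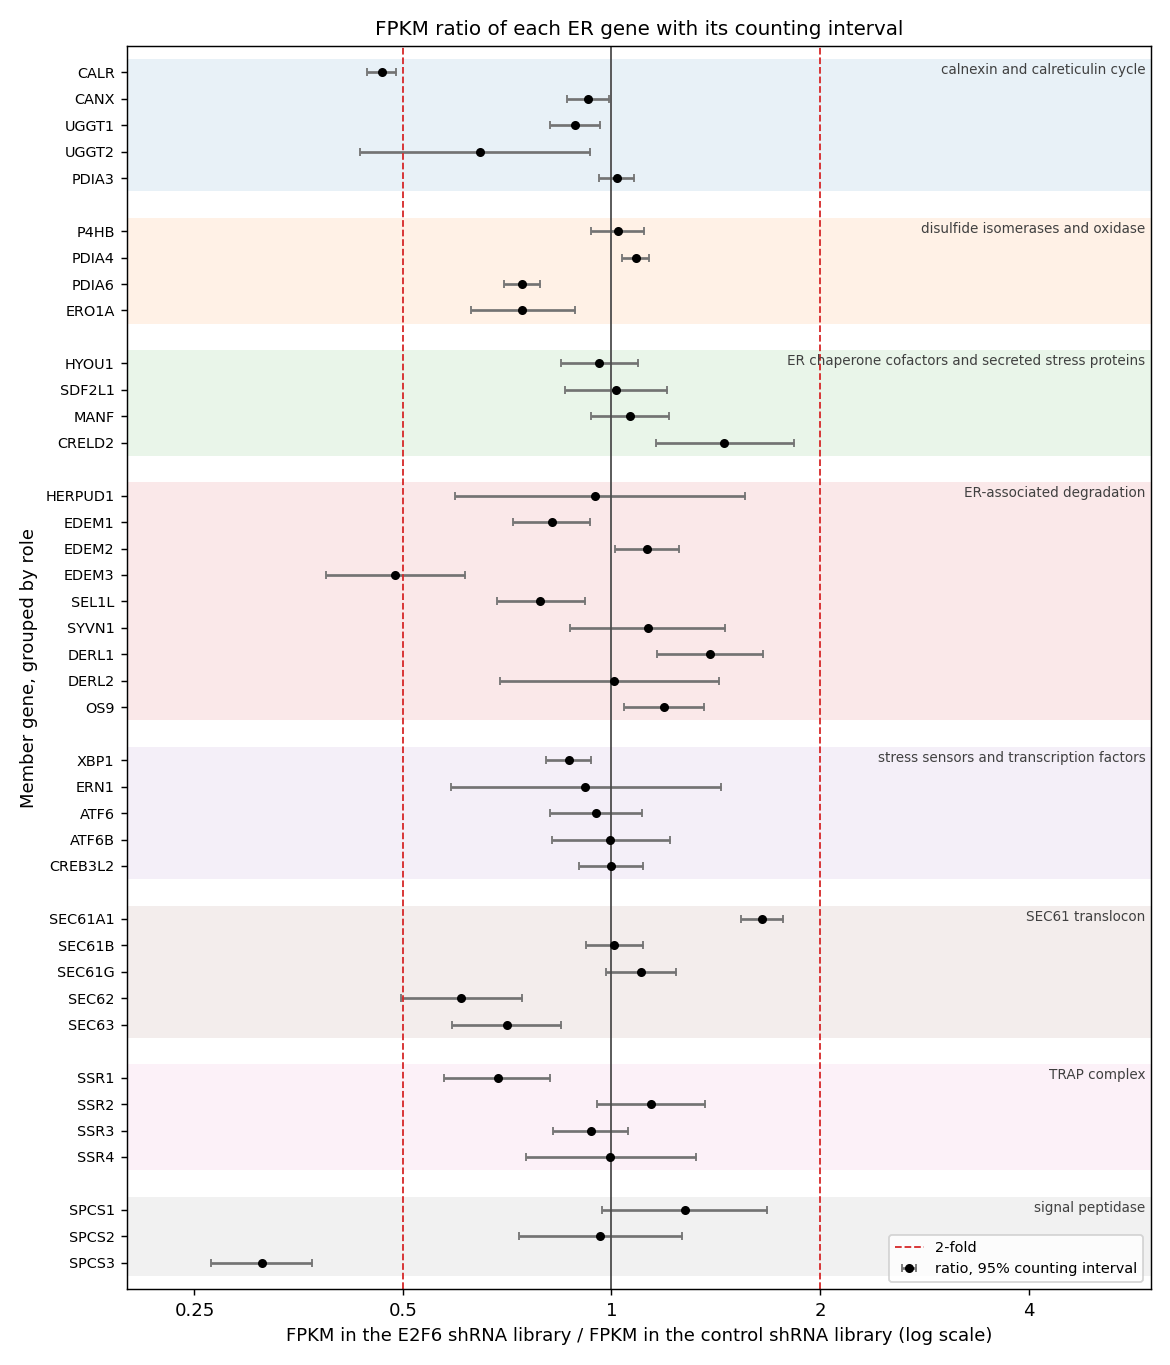
Ratio of the FPKM value in the E2F6 shRNA library to that in the control shRNA library for each of the 39 ER genes on a log axis, with points for the ratio and bars for the 95% counting interval, and dashed lines at 2-fold. CALR, SPCS3 and EDEM3 lie left of the lower dashed line, and SEC61A1 at 1.65 lies farthest to the right.

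The counting intervals of 20 members lay wholly to 1 side of a ratio of 1, 14 of them lower and 6 higher. Over the 11527 genes with an interval 23.5% were lower and 20.8% higher by the same measure, 44.4% in all. Over the members the shares lower and higher were 35.9% and 15.4%. Intervals narrow with more fragments, and the members' median level was 13.9 FPKM, beside 4.96 FPKM over all genes. In the other pathway lists described below, with a median level of 15.6 FPKM, 30.7% were lower and 27.2% higher. These intervals cover counting error only and not the spread between cultures, which 1 library a group does not show.

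**Figure D3:**
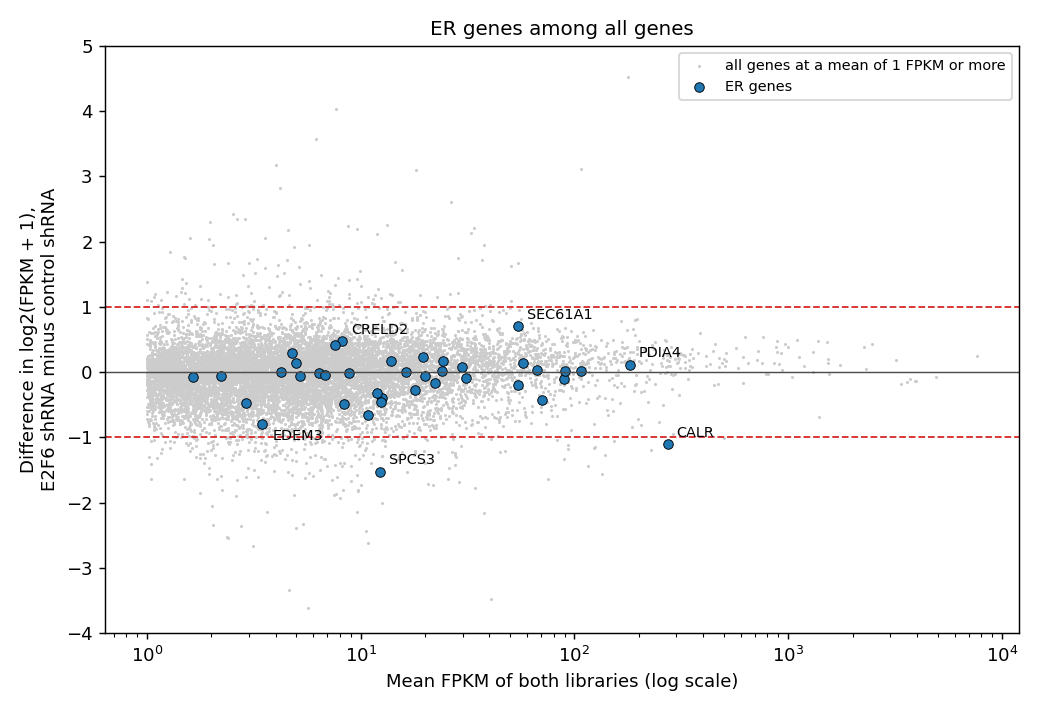
Difference in log2(FPKM + 1), E2F6 shRNA minus control shRNA, against the mean FPKM of both libraries on a log axis, with all 11574 genes at a mean of at least 1 FPKM in grey, the 39 ER genes in blue and dashed lines at the rule of size. CALR and SPCS3 lie below the lower dashed line, while the other ER genes lie within the grey band around 0.

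Read beside their promoters, 4 of the 5 members with the ERSE letters were below 0 and 1 was above. Their median was -0.20, beside -0.05 for the members without the letters. Over all genes tested that had a window, 9 of the 13 with the letters, these 5 included, were below 0 with a median of -0.11. The median of the genes without the letters was -0.00471. The part of the letters in these differences was not tested. Of the 5 with the ERSE letters, CALR was at -1.10, PDIA6 at -0.42, XBP1 at -0.20, CANX at -0.11 and CRELD2 at 0.48 on the log2(FPKM + 1) scale. HSPA5, whose stretch is shown with theirs and whose product BiP is the main chaperone of the unfolded protein response, was at 269.9 and 271 FPKM. HSP90B1 was at 190.3 and 136.4 FPKM, a difference of -0.48 that was -0.32 after the correction for GC content. The 3 members with ERSE-II, HERPUD1, HYOU1 and SDF2L1, lay between -0.06 and 0.02. SPCS3, with the largest difference, held none of the motifs searched in its window, and neither did SEC61A1 or EDEM3. The same held for members with small differences, among them MANF, P4HB, SEC61B and ATF6. A window without these motifs was thus not particular to the members with large differences.

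Further motifs were searched on both strands because of the factors they are known for. TGACGTGG, a UPRE form that shares ACGTG with CACGTG, was in 0.729% of all windows. Per gene it was in those of 4 of 36 members (11.1%), HYOU1, SEC62, SSR3 and SSR4, and of 1.23% of the 7836 genes. All 4 were below 0, with a median of -0.07, beside -0.05 for the members without it. Over all genes tested that had a window, 54 of the 96 with the letters were below 0, with a median of -0.04. The 4 members ran from -0.27 (SEC62) to 0.15 (SSR3) after the correction for GC content described below. TTCCCGC, an E2F-type motif, was in 6.55% of all windows. Per gene it was in those of 8 of 36 members (22.2%), CANX, CREB3L2, DERL2, ERO1A, SEC62, SEC63, UGGT1 and UGGT2, and of 13.6% of the 7836 genes. The differences of these members ran from -0.66 to 0.01 with a median of -0.28, and that of the 28 members without the letters was -0.03. Over all genes tested that had a window, the medians were -0.01 for the 1062 with the letters and -0.00286 for those without. The transcripts of these 8 members had a median GC content of 43.9%, and those of the other 28 one of 53.0%. After the correction for GC content described below, the 8 ran from -0.27 (SEC62) to 0.19 (DERL2). The median of all 39 members was then -0.08. The part of the letters in these differences was not tested. CACGTG, the E-box, was in 7.26% of all windows. Per gene it was in those of 5 of 36 members (13.9%), ATF6B, CANX, HERPUD1, SSR1 and SSR3, a share close to the 12.9% of the 7836 genes. All 5 were below 0, with a median of -0.09, beside -0.05 for the members without it. Over all genes tested that had a window, 529 of the 1013 with the E-box were below 0, with a median of -0.02. The 5 members ran from -0.28 (SSR1) to 0.15 (SSR3) after the correction for GC content.

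Transcript GC content went with the differences. Across the 39 members the Spearman correlation between GC content and difference was 0.550, and across 9900 protein-coding genes it was 0.461, all from the same 2 libraries. The part of GC content in the differences was not tested beyond the values given here. Of the 15 members with a GC content under 45%, 12 (80%) were below 0, with a median of -0.31. Over all such genes 77.5% were below 0, with a median of -0.26. Of the 24 members at 45% or more, 11 (45.8%) were below 0, with a median of 0.02. Over all such genes 38.4% were below 0, with a median of 0.10. SPCS3, EDEM3, SEC62 and SEC63 had the lowest GC contents of the members, 35.8%, 38.7%, 38.9% and 39.0%. With the trend over protein-coding genes removed, SPCS3 was at -1.04, EDEM3 at -0.40, SEC62 at -0.27 and SEC63 at -0.08. SSR1 was then at -0.28, ERO1A at -0.22, UGGT2 at -0.21 and UGGT1 at -0.00426, and of the members with higher values OS9 was at 0.10, EDEM2 at 0.03 and PDIA4 at -0.00589. CALR, with a GC content of 54.5%, was at -1.24 after that correction, and SEC61A1, at 52.8%, was at 0.59.

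**Figure D4:**
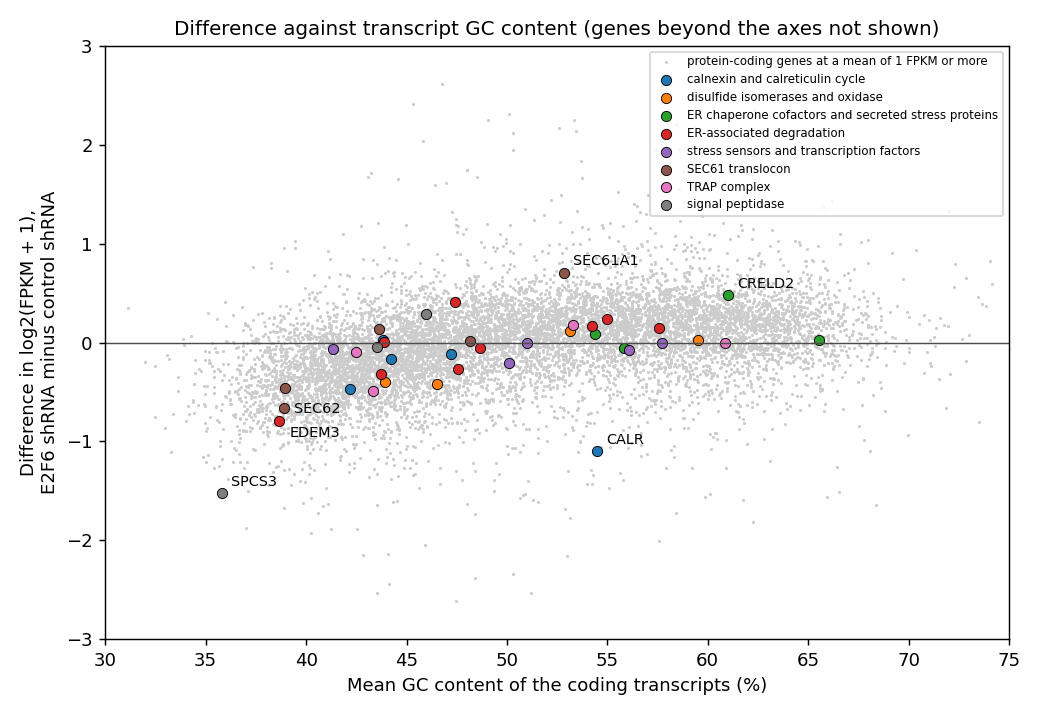
Difference in log2(FPKM + 1), E2F6 shRNA minus control shRNA, against the mean GC content of the coding transcripts in percent, with protein-coding genes at a mean of at least 1 FPKM in grey and the 39 ER genes coloured by role. SPCS3, EDEM3 and SEC62 lie at the low end of GC content with the grey points sloping down, and CALR at 54.5% lies below the grey band.

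Other genes of the secretory pathway were taken from 6 lists with 118 names, of which 116 were measured and 114 had a mean of at least 1 FPKM. None was higher and 2 were lower by the rule, and the median difference was 0.01. Among 33 other ER chaperones and folding enzymes 1 was lower, ERP44, which retains ERO1 enzymes and unassembled subunits in the early secretory pathway, at 18.3 and 6.90 FPKM (2.65-fold, 2.39 to 2.94). Among 19 other targeting and translocation genes 1 was lower, SRP9, a subunit of the signal recognition particle, at 130 and 56.8 FPKM (2.29-fold, 2.10 to 2.50). Of the 19, 11 were above 0 and 8 below, with a median of 0.06. ASNA1 had their largest positive difference, 0.94, short of the rule, at 21.7 and 42.4 FPKM (ratio 1.96, 1.72 to 2.22). After the correction for GC content ERP44 was at -0.90, short of the rule, SRP9 at -1.02 and ASNA1 at 0.78.

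None of 14 oligosaccharyltransferase and glycan trimming genes passed the rule, and 10 were above 0 with a median of 0.22, or 0.10 after the correction for GC content. RPN1, which encodes a subunit of the transferase, had the largest positive difference at 94.8 and 149 FPKM, followed by the glucosidase gene MOGS at 7.14 and 10.2 FPKM. The catalytic subunit gene STT3B had the largest negative one at 102 and 64.0 FPKM, followed by MAGT1 at 6.62 and 4.79 FPKM, and that correction left -0.38 of -0.66 for STT3B and -0.14 of -0.40 for MAGT1. None of 25 other degradation genes passed it. Among those above 0 was RNF5, a ubiquitin ligase gene, at 59.8 and 80.0 FPKM. FAM8A1, a cofactor of HRD1, had the largest negative difference at 8.17 and 4.70 FPKM, followed by FAF2 at 28.4 and 19.1 FPKM, and after the correction they were at -0.37 and -0.65 on the log2 scale.

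The PERK and ATF4 branch, the arm of the unfolded protein response that slows translation, had none of 13 genes past the rule and a median of -0.12, or -0.00627 after the correction for GC content. CHAC1, which degrades glutathione, had the largest positive difference at 0.4497 and 1.713 FPKM on an estimated 11 and 35 fragments, a ratio of 3.81 with an interval of 1.84 to 8.08. ATF3 followed at 1.05 and 1.76 FPKM. TRIB3, a pseudokinase induced by ATF4, had the largest negative one at 25.61 and 16.0015 FPKM. Its difference of -0.65 was -0.80 after the correction. CEBPG followed at 27.7 and 21.8 FPKM, and its difference of -0.33 was -0.06 after the correction. Among the other 10 sensors, processing proteases and CREB3 factors, none passed the rule. CREB3 and RTCB, whose product joins the cut XBP1 mRNA, had the largest positive differences at 13.8 and 19.9 FPKM and at 54.3 and 71.8 FPKM. CREB3L3, a factor of hepatocytes, had the largest negative one at 6.37 and 4.54 FPKM, and the correction took its -0.41 to -0.56. The protease gene MBTPS1, whose product cleaves ATF6, followed at 13.9 and 10.3 FPKM, and the correction took its -0.40 to -0.48.

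**Figure D5:**
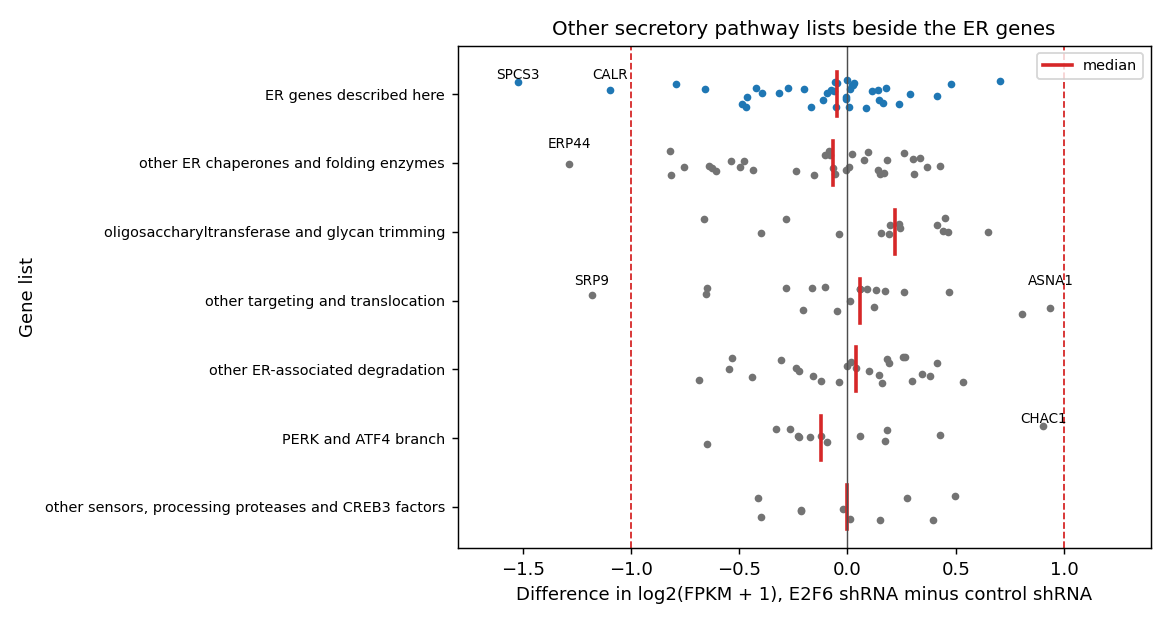
Difference in log2(FPKM + 1), E2F6 shRNA minus control shRNA, for the 39 ER genes in blue and for 6 other secretory pathway lists in grey, 1 point per gene at a mean of at least 1 FPKM, with red bars for the median and dashed lines at the rule of size. SPCS3, CALR, ERP44 and SRP9 lie left of -1, no gene lies right of 1, and the medians lie between -0.12 and 0.22.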

How the data were processed

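The authors deposited a gene table for each library, whose values are FPKM, fragments normalized to transcript length and library total, made with HISAT2 2.0.4 and StringTie 1.3.0 on build GRCh37 as far as the submitters' processing notes tell. The headers name only the library, so the unit rests on those notes and on the values. The sources used here do not give settings, annotation release or use of strand. From 21227 rows of each file 2 were dropped, TGFB1 without a value and a row of spilled text. Gene names turned into dates (23) were restored by gene ID.

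Differences were log2(FPKM + 1), E2F6 shRNA minus control shRNA, with a rule of size of 1 at a mean of at least 1 FPKM. The pseudocount of 1 understates the change of low genes. Depth was read from genes with 1 transcript in GENCODE release 29. Of their values, 98.6% and 98.7% lay within 0.01 of whole fragments. For 72.1% of annotated genes, which have several transcripts, fragments were estimated with the mean transcript length, so the exact conditional binomial 95% intervals of the ratio are approximate. The reads carry no molecular identifiers, so the intervals cover counting error only. GC content was averaged over a gene's coding transcripts, and its trend was fitted by lowess with a span of 0.3 over 9900 protein-coding genes. GENCODE and the promoter windows are on GRCh38 and were joined by gene ID or symbol.

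All members are given. Of each other list the genes past the rule, or else the 2 highest and 2 lowest, are named, except for 1 that is not reported here. Other genes named were chosen after their values were seen. The members and lists were chosen with earlier results of these data known. The rule of size, the intervals and the reading of depth were checked on simulated libraries with counting error alone and a single length per gene. Such libraries cannot check the use of the mean transcript length, the trend on GC content or the spread between cultures. Alternatives were a pseudocount of 0.1, no minimum or a minimum of 5 FPKM, median centring, quantile normalization, a trimmed-mean (TMM) factor, a 1.5-fold threshold and the GC correction. Intervals came from scipy 1.17.1 and the lowess fit from statsmodels 0.14.6, run in Python 3.11.15 with numpy 2.4.6 and pandas 2.3.3, and plots from matplotlib 3.10.9.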

Additional observations from a re-analysis of the deposited data

How the results depend on the processing

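The count of 2 lower members and 0 higher, CALR and SPCS3, held under no minimum, a minimum of 5 FPKM, centring, quantile normalization, the TMM factor and the GC correction. With a pseudocount of 0.1 EDEM3 joined them at -1.01. With a 1.5-fold threshold 4 members were lower and 1 higher, 5 in all, the added ones being EDEM3, SEC62 and SEC61A1. The members' median ran from -0.08 under the GC correction to -0.00757 with a minimum of 5 FPKM. Over all genes 135 higher and 239 lower became 269 and 522 (791 in all) with a pseudocount of 0.1, 67 and 128 (195) when the minimum of 5 FPKM left fewer genes, and 585 and 1080 (1665) at a 1.5-fold threshold. The GC correction and quantile normalization each turned the sign of 8 members, none of which differed by more than 0.15 before. The TMM factor turned that of 3, none above 0.01. No paired analysis was possible because the groups hold a single library each. Low levels limit ERN1, HERPUD1, DERL2 and UGGT2, with under 100 estimated fragments in each library.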
